A study of Mus musculus with 32 samples.

Results

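8 genes with low transcript levels in mouse cerebral cortex are described here. Cyp11a1, Alox12b and Adam33 encode enzymes, Dnah6 a dynein and Tcap a muscle protein. Cd6 and Tspan11 encode cell surface proteins and Wnt10a a ligand. These 8 of the 55401 genes in the deposited count table were picked because their fold changes in Ts65Dn;Df(17)2 against +/+ were the lowest among genes called lower in that contrast, leaving aside provisional symbols (Gm and Rik), so their values in it are a description without a test. All 8 passed the filter on low counts that left 16042 genes. That filter keeps a gene with enough counts in at least 10 libraries, whatever their genotype. Cyp11a1, Cd6 and Tcap met it mainly through +/+ libraries, the group in which the choice makes them high. Their values against +/+ therefore depend on that filter as well as on the choice. The 32 libraries came from the cortex of mice aged 6 weeks and were made from total RNA depleted of ribosomal RNA, with a separate animal number on each label. Of these mice 12 were +/+, and 10 each were Ts65Dn;Df(17)2 and Dp(16)1/Df(16)8, with equal numbers of both labelled sexes. Ts65Dn is a model of Down syndrome in which an extra, freely segregating chromosome carries part of chromosome 16 with a piece of chromosome 17, and Dp(16)1 is a duplication inside chromosome 16; Df(17)2 and Df(16)8 are the deletions combined with them. None of the 8 genes lies on chromosome 16 or 17 (0 on each). The ranking that returned these 8 also left out genes of the rearranged segments of those chromosomes. It left out genes that do not code for protein and genes with an average log2 CPM under 0 as well. Absence from those segments was therefore set by the choice. The labels name no agent, and do not state the strain background, littermates or whether mice were dissected together.

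The 8 genes belong to unrelated pathways. CYP11A1 is the mitochondrial side-chain cleavage enzyme that turns cholesterol into pregnenolone, the first step of steroid synthesis, and ALOX12B is a lipoxygenase known from the lipid barrier of the epidermis. DNAH6 is a dynein heavy chain of the axoneme of motile cilia, and TCAP (telethonin) caps titin at the Z-disc of striated muscle. CD6 is a T cell receptor for ALCAM, TSPAN11 a tetraspanin of the cell membrane, ADAM33 a membrane-anchored metalloprotease and WNT10A a secreted Wnt ligand that acts through Frizzled receptors and LRP co-receptors. Cortical tissue is not the tissue that most of these proteins are known from.

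Their levels were low by the measure of reads per exon length. Averaged over the 32 libraries, the 8 genes had between 0.160 (Cd6) and 1.30 (Dnah6) CPM (counts scaled to the library total after TMM normalisation) per kb of exon, against a median of 4.52 CPM per kb over 15789 tested genes with a known length. Dnah6 stood above 18.5% of those genes, Tcap above 17.5%, Cyp11a1 above 0.887% and Cd6 above 0.184%. Library totals ran from 5795479 to 11189548 counts, which with the TMM factors makes 1 count worth between 0.0885 and 0.169 CPM. Of the 256 values (8 genes in 32 libraries), 95 rested on fewer than 10 counts and 4 were at 0, in 3 of the genes. A count of 0 allows up to 3 counts, or 0.265 to 0.508 CPM over these libraries; such limits cover counting error only, because amplified reads without molecular identifiers are not independent molecules.

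Upstream sequences are shown for 3 genes so that the promoter of Dnah6, whose levels departed from the other 7 in several comparisons, can be read beside those of Tspan11 and Alox12b. RefSeq starts on GRCm38.p6 were at hand for 4 of the 8 genes (5 entries), and 250 bases before each start were searched on both strands for the TATA box (TATAAA), the E-box (CANNTG), the nuclear receptor recognition motif (AGGTCA), the cyclic AMP response element (TGACGTCA) and the GC box (GGGCGG); an E-box can overlap the end of another motif. Capitals mark matches other than the E-box, and bases that an exon covers are left off the 3′ end.
Dnah6, chr6:73221652-73221881, minus strand: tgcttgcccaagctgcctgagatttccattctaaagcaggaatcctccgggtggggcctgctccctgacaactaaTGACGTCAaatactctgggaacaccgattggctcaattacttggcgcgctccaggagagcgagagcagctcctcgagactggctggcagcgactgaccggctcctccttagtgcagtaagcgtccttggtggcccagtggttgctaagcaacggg
Tspan11, chr6:127887372-127887588, plus strand: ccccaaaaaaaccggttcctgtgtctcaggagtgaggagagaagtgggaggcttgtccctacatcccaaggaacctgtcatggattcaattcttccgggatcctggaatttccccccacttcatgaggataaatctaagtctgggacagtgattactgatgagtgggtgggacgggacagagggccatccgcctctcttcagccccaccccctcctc
Alox12b, chr11:69156822-69156988, plus strand: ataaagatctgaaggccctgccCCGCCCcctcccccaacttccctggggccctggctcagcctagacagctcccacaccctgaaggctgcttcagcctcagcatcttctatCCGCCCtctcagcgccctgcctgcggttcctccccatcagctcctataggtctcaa
Dnah6 held 1 cyclic AMP response element, found in 1.55% of 32851 promoters of that length. Alox12b held 3 GC boxes in its 250 bases, 2 of them in the part shown, against 32.7% of promoters with at least 1. Tspan11 and Alox12b each held 1 E-box in their 250 bases, a motif in 66.2% of promoters, and neither match lies wholly in the part shown. Cyp11a1 has 2 RefSeq starts: the 250 bases before one held 3 E-boxes and those before the other 1 nuclear receptor motif, a motif in 14% of promoters. These matches describe letters and not sites of binding.

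The contrast that chose the genes is given first, as values. On the log2 scale the fitted differences of Ts65Dn;Df(17)2 minus +/+ (edgeR, sex as a term) ran from -1.89 in Cyp11a1 to -1.32 in Wnt10a, with a median of -1.50 beside 0.0047 over all tested genes. Just inside stood Adam33 and Wnt10a, both at -1.32. Just outside, under the same limits on symbol, position, gene type and level, stood Psrc1 at -1.24, Npc1l1 at -1.21 and Adra1d at -1.12. Another 4 genes called lower, with Gm or Rik symbols, had differences below that of Wnt10a and are not among the 8. In this fit 2.22% of all tested genes were called lower at an adjusted p under 0.05, a share that says nothing about genes picked from among them.

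**Figure D1:**
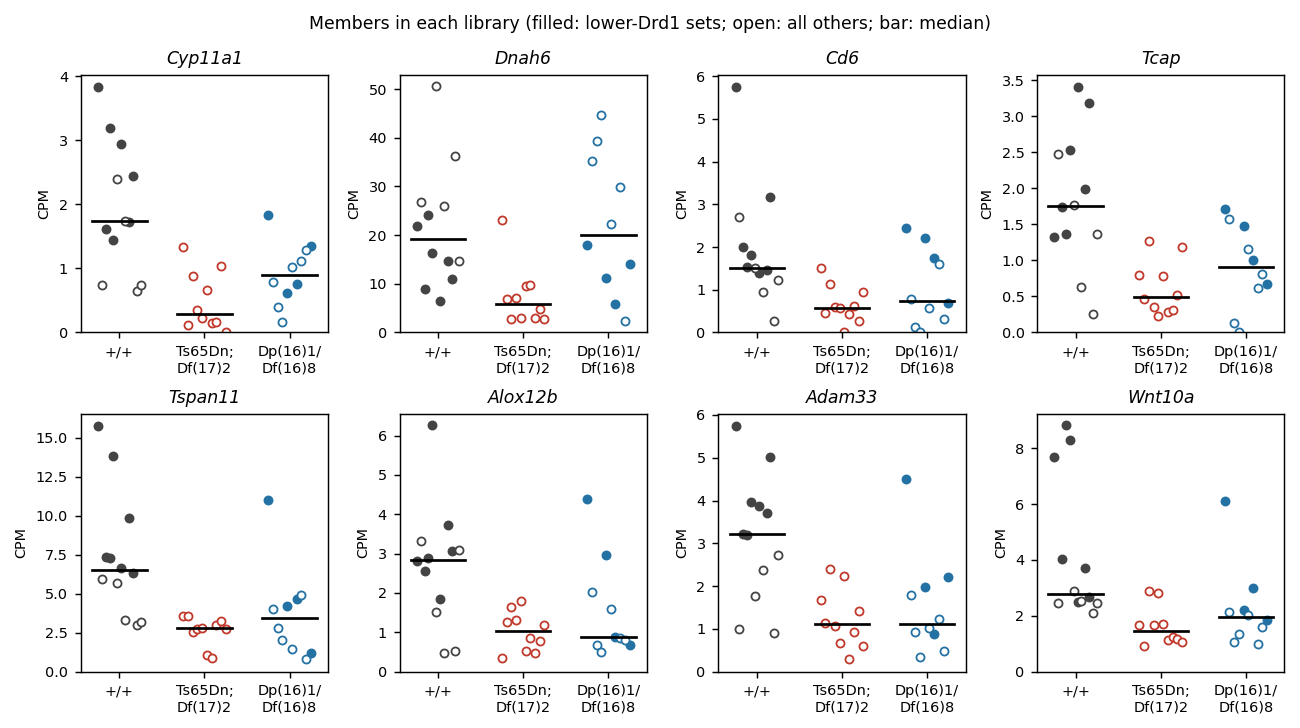
CPM of the 8 genes (vertical axes, from 0) in each of 32 libraries, by genotype; filled points are the +/+ and Dp(16)1/Df(16)8 libraries with low Drd1, open points all others, and bars are medians. In every panel the Ts65Dn;Df(17)2 median lies below the +/+ median, and Dnah6 is the panel in which the Dp(16)1/Df(16)8 median (20.1 CPM) is as high as that of +/+ (19.1 CPM).

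Cyp11a1 lies at chr9:58006411-58027023 on the plus strand (GRCm38). It had a lowest, median and highest level of 0.651, 1.73 and 3.84 CPM in +/+, 0, 0.291 and 1.33 CPM in Ts65Dn;Df(17)2 and 0.168, 0.900 and 1.83 CPM in Dp(16)1/Df(16)8. All 10 Ts65Dn;Df(17)2 libraries were below the +/+ median and 6 of them below the lowest +/+ library, so that the ranges overlapped in the other 4. The summed counts were 170 over the 12 +/+ libraries, 43 over the 10 Ts65Dn;Df(17)2 libraries and 69 over the 10 Dp(16)1/Df(16)8 libraries. The long noncoding RNA Gm17322 runs on the same strand, and 145 exon bases are shared with Cyp11a1, so reads there could have been counted for either gene or dropped. Gm17322 itself had 5.15 ± 2.39 CPM (SD, n = 12) in +/+, 2.16 ± 1.39 and 3.27 ± 1.05 (n = 10 each) in the aneuploid Ts65Dn;Df(17)2 and Dp(16)1/Df(16)8, a log2 difference of -1.23 (SE 0.32, edgeR adjusted p = 0.0301) for Ts65Dn;Df(17)2 minus +/+.

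Alox12b, at chr11:69156989-69169792 on the plus strand, ranged from 0.474 through a median of 2.85 to 6.26 CPM in +/+. In Ts65Dn;Df(17)2 the lowest, median and highest were 0.354, 1.02 and 1.8 CPM, and in Dp(16)1/Df(16)8 they were 0.503, 0.869 and 4.39 CPM. The 2 aneuploid genotypes had similar medians here, and both overlapped the low end of +/+. Its neighbours encode lipoxygenases too: Aloxe3, which lies 7873 bases away and acts on the product of ALOX12B in the epidermis, had a log2 difference of -0.09 (SE 0.27) and Alox8 one of 0.13 (SE 0.14), neither called (adjusted p = 0.881 and 0.639, edgeR).

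Adam33 (chr2:131050591-131063814, minus strand) was measured at 0.911, 3.21 and 5.75 CPM (lowest, median, highest) in +/+, at 0.288, 1.11 and 2.40 CPM in Ts65Dn;Df(17)2 and at 0.335, 1.12 and 4.51 CPM in Dp(16)1/Df(16)8. Every Ts65Dn;Df(17)2 library and 9 of 10 Dp(16)1/Df(16)8 libraries were below the +/+ median. The exception was Dp(16)1/Df(16)8 replicate 1, the library that also held the highest level of 6 other genes of the 8 within its genotype, all but Dnah6.

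Dnah6, at chr6:73017606-73221651 on the minus strand, was the most abundantly counted of the 8, with 41 to 401 counts per +/+ library. Its lowest, median and highest levels were 6.35, 19.1 and 50.6 CPM in +/+, 2.72, 5.77 and 23 CPM in Ts65Dn;Df(17)2 and 2.25, 20.1 and 44.8 CPM in Dp(16)1/Df(16)8. In Ts65Dn;Df(17)2, 9 of 10 libraries lay below the +/+ median, and replicate 1 lay above it at 23 CPM with the next at 9.65 CPM. Without that replicate the log2 difference to +/+ was -1.92 in place of -1.56. The antisense gene Gm20560, which shares 167 exon bases, had 3 counts in all 32 libraries together.

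Tcap (chr11:98383811-98384953, plus strand) had 0.260, 1.75 and 3.41 CPM in +/+, 0.226, 0.487 and 1.26 CPM in Ts65Dn;Df(17)2 and 0, 0.902 and 1.71 CPM in Dp(16)1/Df(16)8, again as lowest, median and highest. All 20 libraries of the aneuploid genotypes, 10 of 10 in each, were below the +/+ median. The +/+ range nonetheless covered nearly the whole of both, because +/+ replicate 11 was at 0.260 CPM. Stard3, the cholesterol transporter gene 2698 bases away, differed by -0.13 on the log2 scale (SE 0.10, edgeR adjusted p = 0.472).

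Cd6 (chr19:10789341-10830058, minus strand) reached 5.75 CPM in +/+ replicate 1, with a +/+ median of 1.52 and a lowest value of 0.260 CPM. Ts65Dn;Df(17)2 libraries held 0, 0.579 and 1.5 CPM, and Dp(16)1/Df(16)8 libraries 0, 0.731 and 2.44 CPM, as lowest, median and highest. The Dp(16)1/Df(16)8 values were spread over the +/+ range, with 6 of 10 below its median against 10 of 10 in Ts65Dn;Df(17)2. Cd5, the related T cell receptor gene beside it, had 16 counts in all libraries together.

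Tspan11 (chr6:127887589-127953977, plus strand) had 2.99, 6.51 and 15.8 CPM in +/+, 0.864, 2.78 and 3.55 CPM in Ts65Dn;Df(17)2 and 0.803, 3.42 and 11 CPM in Dp(16)1/Df(16)8 as lowest, median and highest. With 7 of 10 Ts65Dn;Df(17)2 libraries below the lowest +/+ library, the ranges overlapped in 3. The neighbouring tetraspanin gene Tspan9, 7418 bases away, showed a log2 difference of -0.07 (SE 0.05, edgeR adjusted p = 0.474), and the antisense gene Gm15870, which shares no exon base, had 6 counts in all libraries.

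Wnt10a (chr1:74791516-74804179, plus strand) had lowest, median and highest levels of 2.08, 2.80 and 8.83 CPM in +/+ and 0.916, 1.46 and 2.90 CPM in Ts65Dn;Df(17)2. With 8 of 10 Ts65Dn;Df(17)2 libraries below every +/+ library, it had the most such libraries of the 8 genes. No further library was below the +/+ median (8 of 10 again), against 10 of 10 in Tspan11. In Dp(16)1/Df(16)8 the values were 0.985, 1.95 and 6.10 CPM, with 6 of 10 libraries below every +/+ library. Wnt6, 6193 bases away and transcribed in the same direction, averaged 0.682 ± 0.367 CPM in +/+ (SD, n = 12) and 0.997 ± 0.485 CPM in Ts65Dn;Df(17)2 (n = 10) and did not pass the filter on low counts.

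Dp(16)1/Df(16)8 against +/+ asks whether a duplication inside the chromosome goes with the same levels; the libraries of this genotype were not used to choose the genes, but the +/+ libraries are shared with the choosing contrast. None of the 8 was called (0 of 8, edgeR adjusted p under 0.05), in a fit that called 0.573% of all tested genes; 6 had an unadjusted p under 0.05, as did 12.8% of all tested genes. limma voom also called 0 of the 8, and DESeq2 called 0 of the 3 for which it gave an adjusted p. The log2 difference was -1.03 in Cyp11a1 (SE 0.37, adjusted p = 0.249), -1.01 in Adam33 (SE 0.34, adjusted p = 0.215) and -0.95 in Tspan11 (SE 0.30, adjusted p = 0.152). Tcap, Wnt10a, Cd6 and Alox12b lay between -0.96 and -0.81. Dnah6 stood apart from these at 0.0034 (SE 0.37), with mean levels of 22.3 ± 14.5 CPM in Dp(16)1/Df(16)8 (SD, n = 10) and 21.5 ± 12.6 CPM in +/+ (n = 12). Over the 8 genes the median was -0.89, beside 0.0014 over all tested genes. The choice favoured genes with high values in these same +/+ libraries, which by itself pushes Dp(16)1/Df(16)8 minus +/+ below 0. All tested genes were not chosen in that way. The negative signs, the median of the 8 and the 6 unadjusted p under 0.05 are therefore a description, not support from another genotype. Dp(16)1/Df(16)8 replicate 1 is singled out here because it held the highest levels of 7 of the genes. Without it 3 were called by edgeR, where 1.38% of all tested genes were called: Tspan11 at -1.24 (adjusted p = 0.0224), Wnt10a at -1.09 (adjusted p = 0.0303) and Adam33 at -1.34 (adjusted p = 0.0364). Leaving out a library picked for high levels of these genes lowers their mean in its genotype, so these 3 calls are a description. Leaving out any other single library gave 0 of the 8.

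Set directly against each other, the aneuploid genotypes did not differ past the threshold in any of the 8 (0 called by edgeR, 1 with an unadjusted p under 0.05), where 0.0499% of all tested genes were called and 4.1% had an unadjusted p under 0.05; the Ts65Dn;Df(17)2 libraries are those that chose the genes. All 8 differences of Ts65Dn;Df(17)2 minus Dp(16)1/Df(16)8 were negative, from -1.56 (SE 0.41) in Dnah6 to -0.31 (SE 0.39) in Adam33. The edgeR adjusted p of Dnah6 was 0.695, for means of 7.23 ± 6.17 CPM and 22.3 ± 14.5 CPM (SD, n = 10 each). Without Dp(16)1/Df(16)8 replicate 1 the difference of Adam33 was 0.024.

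**Figure D2:**
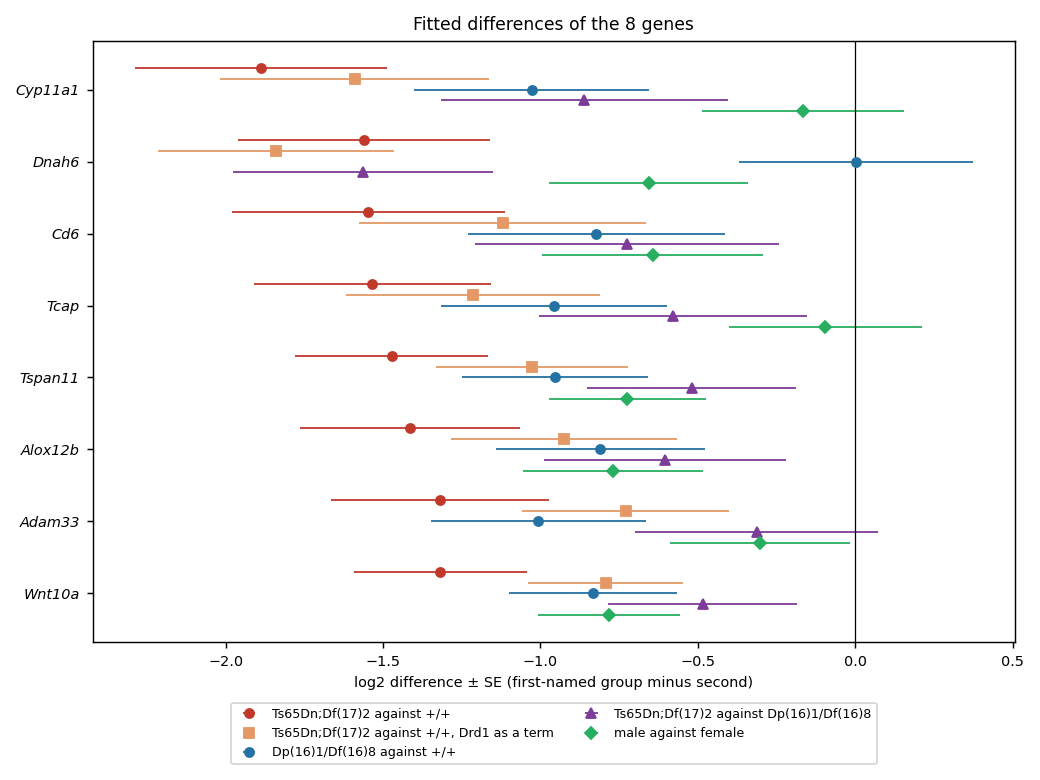
Fitted log2 differences (horizontal axis; points) with standard errors (bars) of the 8 genes in 4 comparisons, and for Ts65Dn;Df(17)2 against +/+ also with Drd1 as a term. Dnah6 is the gene with a difference near 0 for Dp(16)1/Df(16)8 against +/+ (0.0034) and the gene whose difference to +/+ is further from 0 with Drd1 in the fit (-1.84) than without it (-1.56).

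Sex was not used in the choice, and it offered a further comparison over 16 libraries labelled female and 16 labelled male. All 8 genes had negative male-minus-female log2 differences, from -0.09 in Tcap to -0.78 in Wnt10a; 0 were called by edgeR, DESeq2 or limma voom, 0.0748% of all tested genes were called. An unadjusted edgeR p under 0.05 was found for 4 of the 8 and for 9.94% of all tested genes. Wnt10a averaged 3.57 ± 2.65 CPM in females and 1.99 ± 0.788 CPM in males (SD, n = 16 each), with an adjusted p of 0.381. Alox12b differed by -0.77 (SE 0.29) and Tspan11 by -0.72 (SE 0.25), each with an adjusted p of 0.433. The median over the 8 was -0.65, beside 0.0041 over all tested genes. Transcripts of striatal neurons moved with sex as well: all 15 striatal markers had positive male-minus-female differences, with a median of 0.27 and 0 called, and their part in the sex differences of the 8 genes was not tested. Dp(16)1/Df(16)8 replicate 2, labelled female, had 14 counts of Xist and 1849 counts of Y-linked transcripts, which goes against its label; without it 0 of the 8 were called and Wnt10a differed by -0.81. The genotype difference was not called to depend on sex in any of the 8 (0 with an unadjusted p under 0.05, against 4.22% of all tested genes; edgeR called 0 and DESeq2 1 of all tested genes).

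The libraries differed in transcripts of striatal neurons, and the levels of the 8 genes were set against Drd1, the dopamine receptor gene of one class of striatal projection neurons. Drd1 ran from 12.8 through a median of 35.5 to 177 CPM in +/+, from 38.1 through 118 to 159 CPM in Ts65Dn;Df(17)2 and from 19.1 through 117 to 196 CPM in Dp(16)1/Df(16)8. The log2 difference of Ts65Dn;Df(17)2 minus +/+ in Drd1 was 0.77 (SE 0.42, edgeR adjusted p = 0.286). In +/+ the values fell into a lower set of 7 libraries (12.8 to 36.4 CPM) and a higher set of 5 (85.3 to 177 CPM), in Dp(16)1/Df(16)8 into 4 (19.1 to 36.2 CPM) and 6 (112 to 196 CPM), at gaps of over 1 log2 unit with at least 3 libraries on each side. Ts65Dn;Df(17)2 was kept as 1 set by that rule, although replicate 4, at 38.1 CPM, lay 1.06 log2 units below the next library (79.8 CPM) and close to the lower sets of the other genotypes. All 15 striatal markers had positive differences of Ts65Dn;Df(17)2 minus +/+, with none called (0 of 15) and a median of 0.77; their summed level was 274 to 3775 CPM in +/+, 906 to 3349 CPM in Ts65Dn;Df(17)2 and 372 to 3682 CPM in Dp(16)1/Df(16)8, and no marker was at 0 in all libraries. Of 12 markers of upper and layer 4 cortical neurons 6 were called lower in Ts65Dn;Df(17)2, among them the layer 4 factor Rorb and the upper layer factor Cux2; their summed level was 740 to 1326 CPM in +/+, 741 to 973 CPM in Ts65Dn;Df(17)2 and 678 to 1300 CPM in Dp(16)1/Df(16)8. In bulk tissue fewer cells of a type and less RNA per cell cannot be told apart.

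Within +/+, Tspan11 and Adam33 separated completely between the 2 sets. Tspan11 was at 6.36 to 15.8 CPM in the 7 libraries with lower Drd1 and at 2.99 to 5.92 CPM in the 5 with higher Drd1. Adam33 was at 3.20 to 5.75 CPM and 0.911 to 2.72 CPM in the same sets. These were 2 of the 8 genes, where 1.98% of all tested genes had every +/+ library of lower Drd1 above every one of higher Drd1; none of the 8 was separated in the other direction (0), and 5.04% of all tested genes were separated in either. Wnt10a overlapped slightly, at 2.48 to 8.83 CPM against 2.08 to 2.90 CPM. Dnah6 ran the other way with overlap, at a median of 14.7 CPM in the lower and 26.9 CPM in the higher set.

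**Figure D3:**
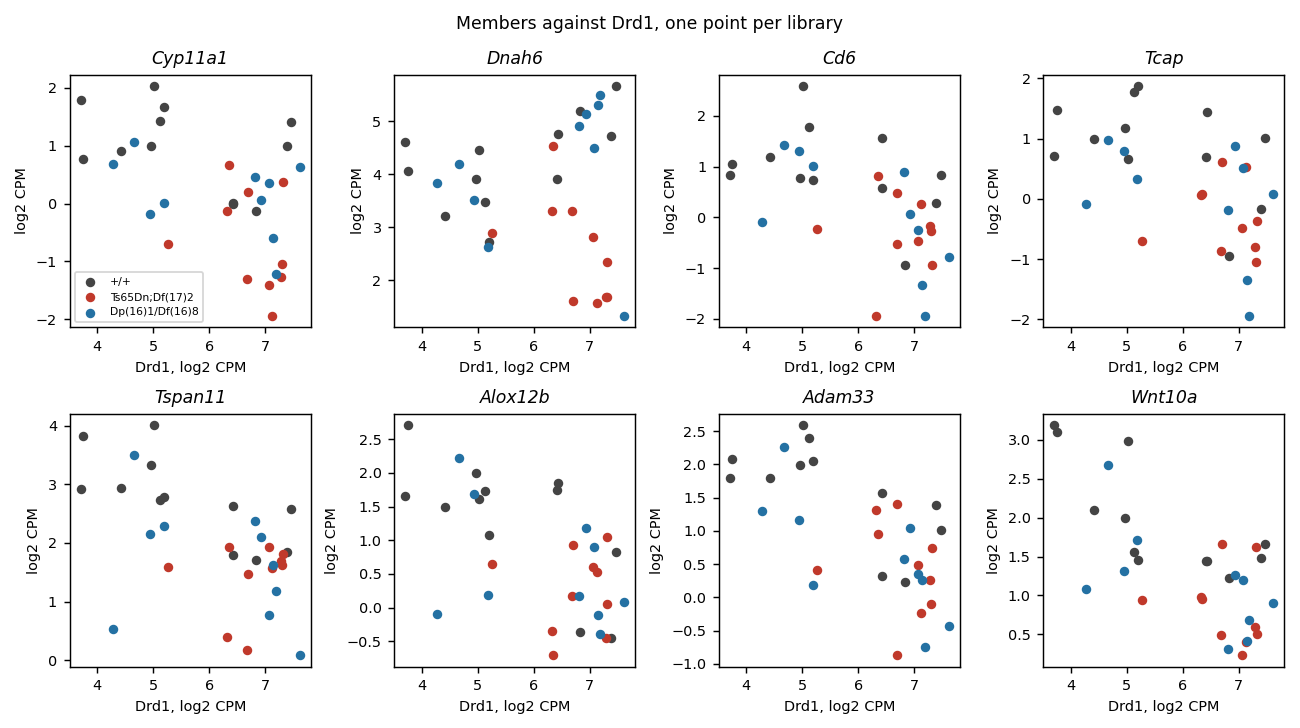
log2 CPM of each of the 8 genes (vertical axes, prior count 2) against log2 CPM of Drd1 (horizontal axes), 1 point per library, coloured by genotype. Tspan11 and Adam33 are higher in every +/+ library with 12.8 to 36.4 CPM of Drd1 than in any with 85.3 to 177 CPM, while the lowest level of Dnah6, 2.25 CPM, is that of the Dp(16)1/Df(16)8 library with the highest Drd1, 196 CPM.

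A slope on the log2 CPM of Drd1, fitted within genotypes with sex as a term, was called for 5 of the 8 genes, where 27.5% of all tested genes were called (13.6% with a negative and 13.9% with a positive slope). The negative slopes numbered 4: -0.44 in Adam33 (SE 0.11, adjusted p = 0.00385), -0.37 in Wnt10a (SE 0.082, adjusted p = 0.000709), -0.35 in Alox12b (SE 0.12, adjusted p = 0.0294) and -0.32 in Tspan11 (SE 0.11, adjusted p = 0.0215), in log2 units per log2 unit of Drd1, all by edgeR. Dnah6 had a positive slope of 0.35 (SE 0.13, adjusted p = 0.0394), and Cd6, Tcap and Cyp11a1 had slopes of -0.34, -0.25 and -0.23 that were not called. The median slope of the 8 was -0.33, beside 0.0020 over all tested genes. Leaving out each library gave 2 to 5 called: 2 without Dp(16)1/Df(16)8 replicate 1, where 25.9% of all tested genes were called, and 3 without +/+ replicates 5, 6 or 8 or Dp(16)1/Df(16)8 replicates 3 or 4. Dnah6 was not called in 12 of those 32 fits. With a term for each set, chosen after seeing the data, 0 of 8 and 4.83% of all tested genes were called. In that fit the standard errors were larger, and the slopes were 0.19 in Tspan11 (SE 0.21), -0.06 in Adam33 (SE 0.25), -0.16 in Wnt10a (SE 0.18), -0.22 in Alox12b (SE 0.27) and -0.39 in Dnah6 (SE 0.28).

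**Figure D4:**
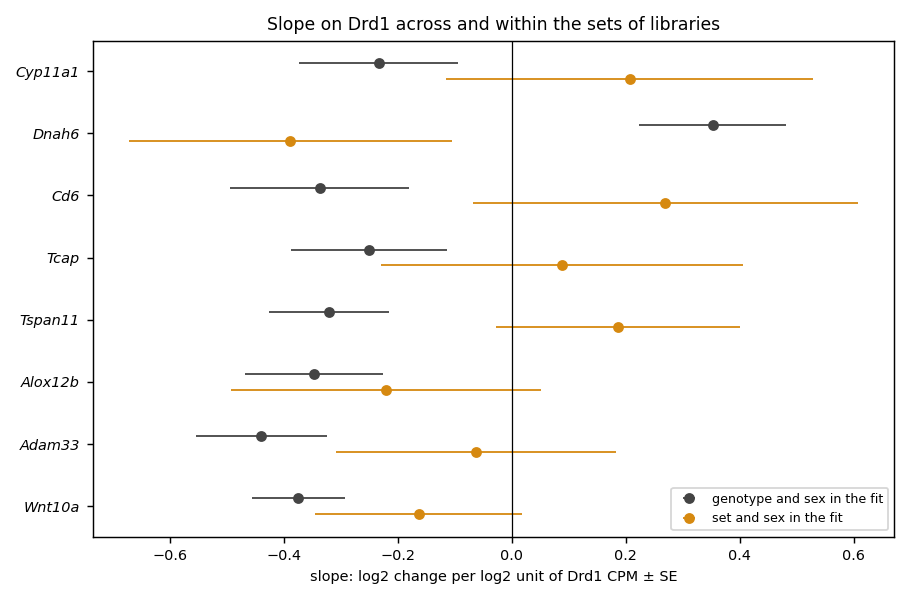
Slopes of the 8 genes on log2 CPM of Drd1 (horizontal axis; points) with standard errors (bars), fitted with genotype and sex (dark) or with the sets of libraries and sex (orange). In the first fit 7 of the 8 slopes are negative and that of Dnah6 is 0.35; in the second the standard errors are wider, the slope of Dnah6 is -0.39 and those of Cyp11a1, Cd6, Tcap and Tspan11 are positive.

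Correlations with Drd1 were computed inside the sets of at least 6 libraries only: 7 +/+ libraries with lower Drd1, the 10 Ts65Dn;Df(17)2 libraries and 6 Dp(16)1/Df(16)8 libraries with higher Drd1. Of these 24 relations 0 passed after Benjamini-Hochberg adjustment over all of them, by Pearson's r or by Spearman's rho. The smallest p of r was that of Tspan11 in Dp(16)1/Df(16)8, at r = -0.90 (exact permutation p = 0.0139, adjusted 0.333) and rho = -0.83 (exact p = 0.0583, adjusted 0.289), with r = -0.57 after leaving out the 2 libraries farthest from the median of Drd1. Wnt10a in the +/+ set had r = -0.75 (exact permutation p = 0.0593, adjusted 0.600) and rho = -0.89 (exact p = 0.0123, adjusted 0.289), and r fell to -0.26 without the 2 farthest libraries. Dnah6 in Ts65Dn;Df(17)2 had r = -0.52 (permutation p = 0.121, adjusted 0.600) and rho = -0.62 (permutation p = 0.0601, adjusted 0.289), with r = -0.73 without those 2, one of them replicate 4.

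With Drd1 as a term, the values of Ts65Dn;Df(17)2 minus +/+ were nearer 0 in 7 of the 8 genes and further from 0 in Dnah6. The term took Adam33 from -1.32 to -0.73, Wnt10a from -1.32 to -0.79, Alox12b from -1.41 to -0.92 and Tspan11 from -1.47 to -1.03. Cyp11a1 went from -1.89 to -1.59, Tcap from -1.53 to -1.21 and Cd6 from -1.55 to -1.12. Dnah6 went from -1.56 to -1.84. These libraries chose the genes, so the values are a description.

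Animal numbers gave another split. Those from 32350 to 32373 cover 8 Ts65Dn;Df(17)2 and 4 +/+ mice and no Dp(16)1/Df(16)8 mouse. They are among the libraries that chose the genes, so their values too are a description: Tspan11 was at -1.58 and Alox12b at -1.40 there, and Tcap did not pass the filter. Dnah6 differed by -0.60 there, against -1.56 over all libraries: its levels were 6.35 to 26.9 CPM in the 4 +/+ libraries, with a median of 15.4, and 2.72 to 23 CPM in the 8 Ts65Dn;Df(17)2 libraries, with a median of 5.77. Drd1 also differed there, at 21.2, 34.3 and 85.7 CPM (lowest, median, highest) in the 4 +/+ libraries and 79.8, 118 and 159 CPM in the 8 Ts65Dn;Df(17)2 libraries. Its part in the differences within this stretch was not tested. The labels do not say what the numbers mark beyond the animal.

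**Figure D5:**
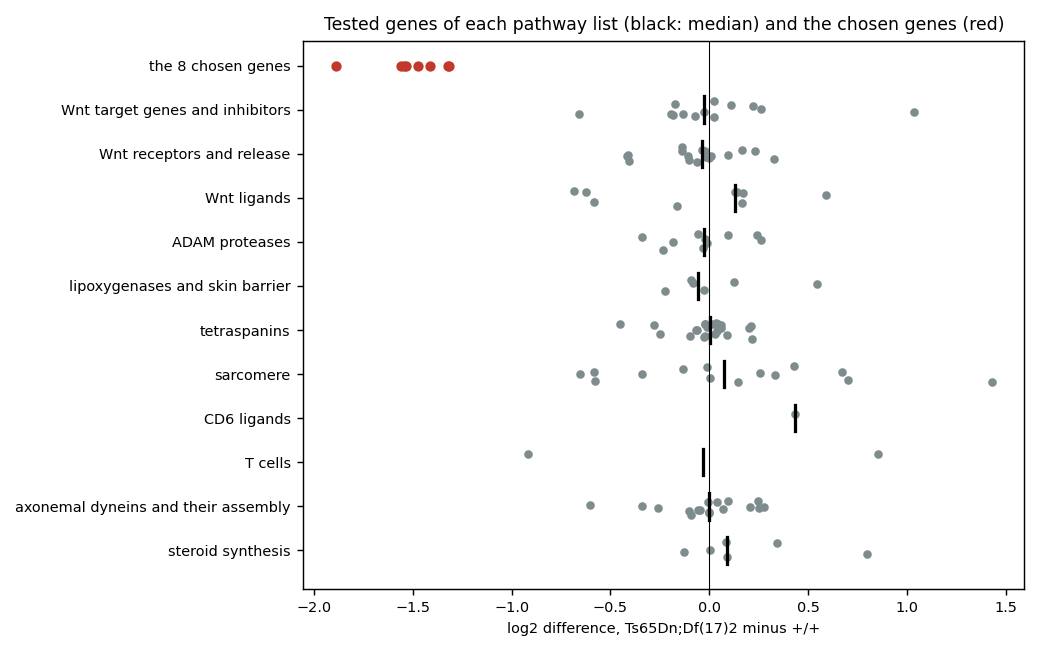
log2 differences of Ts65Dn;Df(17)2 minus +/+ (horizontal axis) of the tested genes in 11 pathway lists (grey points, 1 per gene; black bars, medians), with the 8 chosen genes in red at the top. List medians lie between -0.06 and 0.43, the highest being that of a list with 1 tested gene (Alcam). The chosen genes lie between -1.89 and -1.32, a position set by their choice in this contrast.

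The other genes of each pathway were taken from lists. In steroid synthesis 6 of 20 genes in the table passed the filter; 1 rose in Ts65Dn;Df(17)2, the hydroxysteroid dehydrogenase Akr1c14 (log2 0.80, SE 0.21, edgeR adjusted p = 0.0355), 0 fell, and the list's median was 0.09. Fdx1 and Fdxr, the electron carriers of CYP11A1, were at 0.08 and 0.09, and Star, which brings cholesterol into mitochondria, at 0.0022, none of them called. Of 22 axonemal dynein and assembly genes 17 were tested, with 0 called in any genotype comparison and a median of -0.00049 for Ts65Dn;Df(17)2 minus +/+. The heavy chain genes Dnah5, Dnah9 and Dnah1 had log2 differences of -0.09 (SE 0.22), 0.09 (SE 0.20) and 0.25 (SE 0.19).

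Ependymal cells carry motile cilia, and their markers are given beside Dnah6 for that reason. Of the 10 markers 5 were tested and 0 were called, with a median of -0.18 for Ts65Dn;Df(17)2 minus +/+ and 2 of the 5 positive, and none was at 0 in all libraries. Summed, they stood at 9.80 to 28.6 CPM in +/+, 12.2 to 25.9 CPM in Ts65Dn;Df(17)2 and 9.30 to 22.6 CPM in Dp(16)1/Df(16)8. Foxj1, the transcription factor of motile ciliated cells, differed by 0.06 (SE 0.23, edgeR adjusted p = 0.904) between Ts65Dn;Df(17)2 and +/+, where Dnah6 was at -1.56. Markers of the choroid plexus, whose epithelium has cilia too, had a median of -0.90 with 0 of 6 tested called; their summed level was 152 to 2045 CPM in +/+, 152 to 311 CPM in Ts65Dn;Df(17)2 and 147 to 1301 CPM in Dp(16)1/Df(16)8, and their part in the level of Dnah6 was not tested.

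For Cd6, the T cell list shows how few counts such genes had. Of 18 genes 2 were tested, Cd4 and Trbc2 with 0 called in any genotype comparison. Over all 32 libraries together Cd3e had 7 counts, Cd3g 3, Cd3d 1, Cd8a 3 and Trbc1 0. The summed level of the list was 6.14 to 29.6 CPM in +/+, 8.31 to 29.9 CPM in Ts65Dn;Df(17)2 and 5.08 to 28 CPM in Dp(16)1/Df(16)8. Alcam, which encodes a ligand of CD6, rose in Ts65Dn;Df(17)2 by 0.43 on the log2 scale (SE 0.12, edgeR adjusted p = 0.0375). Its level went from 259 ± 67.1 CPM in +/+ (SD, n = 12) to 348 ± 26.1 CPM (n = 10). Cdcp1, the other listed ligand gene of CD6, had 122 counts in all libraries together and was not tested. Alcam also had a positive slope on Drd1 within genotypes (0.22, SE 0.025, adjusted p = 2.04e-08), and the part of Drd1 in its difference was not tested.

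Among sarcomere genes, 14 of 35 were tested; 2 rose in Ts65Dn;Df(17)2 and 0 fell, with a median of 0.07. Smyd1, a muscle methyltransferase gene, rose from 1.43 ± 0.661 CPM (SD, n = 12) to 3.88 ± 1.02 CPM (n = 10), a log2 difference of 1.43 (SE 0.23, edgeR adjusted p = 0.000121), and was the 1 gene of the list called in Dp(16)1/Df(16)8 too (1.19, adjusted p = 0.00394). Ldb3, another Z-disc gene, rose by 0.43 (SE 0.10, adjusted p = 0.0180), and Ttn, whose product TCAP binds, was at 0.26 (SE 0.15, adjusted p = 0.334). Both called sarcomere genes had positive slopes on Drd1 (0.24 in Smyd1, adjusted p = 0.0330, and 0.12 in Ldb3, adjusted p = 0.00851). Of 22 tested tetraspanins 1 fell, Tspan14, by 0.45 (SE 0.10, adjusted p = 0.0105), with a slope on Drd1 of -0.16 (adjusted p = 2.68e-05), and the list's median was 0.0036. Of the 6 tested genes for lipoxygenases and the skin barrier 0 were called, with a median of -0.06. Of 10 ADAM genes 1 rose, the tumour necrosis factor convertase Adam17, by 0.26 (SE 0.076, adjusted p = 0.0473).

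No Wnt gene on the lists was called in any genotype comparison: 0 of 9 tested ligands, 0 of 17 receptor and release genes and 0 of 13 target genes and inhibitors, with medians of 0.13, -0.04 and -0.03 for Ts65Dn;Df(17)2 minus +/+. Axin2, a transcriptional target of the pathway, was at -0.17 (SE 0.072, edgeR adjusted p = 0.153) and Lef1 at -0.03 (SE 0.10). The ligand genes with the values nearest to Wnt10a were Wnt2b at -0.69 (SE 0.36), Wnt9a at -0.62 (SE 0.22, adjusted p = 0.0978) and Wnt4 at -0.58 (SE 0.20, adjusted p = 0.0803), named after their values were seen. Wnt2b, Wnt9a and Wnt4 had negative slopes on Drd1 that were called. Another 2 of the 9 tested ligands, Wnt2 and Wnt7a, had called positive slopes, where 27.5% of all tested genes were called.

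The genes most like each member were found from log2 CPM after removing the means of genotype by sex, over 32 libraries; the libraries share the sets of Drd1, so these correlations are a description. Wnt10a went most closely with Serpinb8 (r = 0.88), Etv5 (0.87) and Dkk3 (0.87), the last encoding a secreted member of the Dickkopf family. Tcap went with A330009N23Rik (0.80), the upper layer factor gene Cux2 (0.77) and D430041D05Rik (0.77). Cd6 went with Ppfia3 (0.82), Phka2 (0.78) and Boc (0.78), and Adam33 with Pex5l (0.80), Epop (0.79) and Gm37248 (0.78). Tspan11 followed Tagln3 (0.78), Ap2m1-ps (0.77) and Ggt7 (0.75), and Alox12b followed Pik3r1 (0.74), Lurap1l (0.73) and Pakap (0.72). For Cyp11a1 the nearest was the overlapping Gm17322 (0.79), then Adam33 (0.75) and Myo1e (0.73). Dnah6 had a different set, Lrrc75b (0.75), Dbi (0.73) and Minar1 (0.69). The mean of the 8 went with Kcnk4 (0.83), Otx1 (0.83), Clstn1 (0.83) and Epop (0.82), and ran opposite to Get1 (-0.84), Gm43882 (-0.80), Gm37326 (-0.79), Ankrd6 (-0.79) and 6330419E04Rik (-0.79).

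Between the 8 genes themselves, 84 correlations were computed in the 3 sets of at least 6 libraries (28 pairs in each), and 0 passed after adjustment over all 84 by r or rho. Among the 21 pairs without Dnah6 the median r was 0.10 in the 7 +/+ libraries with lower Drd1, 0.15 in Ts65Dn;Df(17)2 and 0.60 in the 6 Dp(16)1/Df(16)8 libraries with higher Drd1. The 7 pairs with Dnah6 had medians of 0.32, -0.07 and -0.04 in the same order.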

How the data were processed

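The deposited table holds counts of reads per gene for 32 libraries, whole numbers that the authors did not normalise; per the submitters' processing notes, the tools were featureCounts (Subread 1.6.4), STAR 2.7.9a and bcl2fastq 2.20, with GRCm38.p6 and GRCh38 named as builds. The strand setting and the annotation release are not given in the sources used here, so reads of overlapping genes cannot be told apart. Of 55401 gene identifiers, 55141 matched GENCODE vM21 (GRCm38), the source of coordinates and exon lengths. Groups, sexes and animal numbers come from the labels; replicate numbers follow accession order and pair nothing. Depth was 5795479 to 11189548 counts per library.

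Counts were fitted with edgeR 4.0.16 (R 4.3.3; filterByExpr, TMM, quasi-likelihood F test, genotype and sex as terms) over all 32 libraries and 16042 genes, which hold 99.8% of the counts, with Benjamini-Hochberg adjustment over all tested genes at 0.05 and the fit tested on simulated data. SE is the size of the log2 difference divided by the square root of F. CPM are scaled by TMM, and log2 CPM use a prior count of 2. Correlations used exact or 100000 permutations, two-sided (Python 3.11.15). DESeq2 1.42.0, limma 3.58.1, other scalings and filters, and leaving out each library were alternatives. The genes and the lists were chosen with earlier results of these data known. Named genes are the 8, their neighbours and overlapping genes, the 3 most like each, the 5 most and least like their mean (1 of which is not reported here), and list genes past the threshold with up to 4 others of highest mean CPM.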

Additional observations from a re-analysis of the deposited data

Results flagged for a closer look

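Within the groups of 10 libraries, a value was singled out where its gap to the nearest other exceeded 0.466 of the group's range. For normally distributed values chance alone gives this in about 1 of 20 groups, a rate that need not hold for CPM of scarce genes. Such a library was found in 4 of 16 groups, each time at the high end, and 3 of them share the same one. The genes share their libraries, so the groups are not independent and no excess is read from this count. In Ts65Dn;Df(17)2 replicate 1, Dnah6 stood at 23 CPM, with the other 9 libraries at 2.72 to 9.65 CPM. In Dp(16)1/Df(16)8 replicate 1, Tspan11 stood at 11 CPM (others 0.803 to 4.93), Adam33 at 4.51 CPM (others 0.335 to 2.2) and Wnt10a at 6.10 CPM (others 0.985 to 3). That library was in the set of lower Drd1, at 25.1 CPM.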

How the results depend on the processing

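In Ts65Dn;Df(17)2 against +/+, all 8 genes kept a negative difference under every alternative that could be fitted, and none was tested there as evidence. This contrast chose the genes, so these signs and the counts of the 8 given next for it are a description and not support. DESeq2 called 1069 genes over the whole table and no filter on low counts 331, against 637. With Drd1 as a term 1 of the 8 genes and 149 genes in all were past the threshold, and with the striatal markers 1 and 147. Without the animals numbered below 30000 these counts were 4 and 280, and 2 of the 8 passed among animals 32350 to 32373. Leaving out each library gave 5 to 8 of the 8 and 264 to 1486 genes in all; 5 of the 8 remained without +/+ replicate 5 or without Ts65Dn;Df(17)2 replicate 2, and the whole-table extremes came without Ts65Dn;Df(17)2 replicate 2 and without +/+ replicate 11. For Dp(16)1/Df(16)8 against +/+, DESeq2 called 145 genes in place of 92, with an adjusted p for 3 of the 8; leaving out each library gave 0 to 3 of the 8 and 74 to 222 genes in all, with 165 without +/+ replicate 11 and 222 without Dp(16)1/Df(16)8 replicate 1. The difference of Dnah6 in that contrast, 0.0034, changed sign to -0.0097 in DESeq2, -0.070 in limma voom, -0.0013 without the animals numbered below 30000, -0.30 within blocks of neighbouring animal numbers, and -0.19 with Drd1 or the striatal markers as a term (-0.193 and -0.191), and ran from -0.14 to 0.16 leaving out each library. Adam33 in Ts65Dn;Df(17)2 against Dp(16)1/Df(16)8 turned to 0.025 with Drd1 and 0.027 with the striatal markers as a term, and ran from -0.47 to 0.024 leaving out each library. Tcap in males against females ran from -0.21 to 0.014, the last without +/+ replicate 11. DESeq2 called 1 gene for genotype by sex, and leaving out each library 0 to 2. For the Drd1 slope, Adora2a in its place gave 2 of 8. The +/+ libraries alone gave 2 of 3 tested and 1519 genes in all. Ts65Dn;Df(17)2 alone gave 0 of 1 and 377, and Dp(16)1/Df(16)8 alone 0 of 1 and 1669. These counts of the 8 are given without the share of all tested genes called in the same fits. That share was 27.5% in the main fit, so the counts are no result about the 8. Dnah6 had a slope of -0.87 in Ts65Dn;Df(17)2 alone. With terms for the sets, chosen after seeing the data, 0 of 8 and 774 genes were called, and slopes changed sign to 0.21 in Cyp11a1, -0.39 in Dnah6, 0.27 in Cd6, 0.089 in Tcap and 0.19 in Tspan11. Leaving out each library gave 2 to 5 of 8 and 3833 to 4468 genes in all, with 2 without Dp(16)1/Df(16)8 replicate 1 and 3 without +/+ replicates 5, 6 or 8 or Dp(16)1/Df(16)8 replicates 3 or 4. The cause of these changes was not tested. No relation with Drd1 inside the sets passed under any alternative (0 of 24). No paired analysis was possible because the labels give no replicate numbers and nothing pairs animals across genotypes; the blocks of neighbouring animal numbers are not pairs that the labels name, and with them 0 of the 8 and 77 genes in all were called for Dp(16)1/Df(16)8 against +/+. At this depth a value of Cd6, Cyp11a1 or Tcap in a single library often rests on under 10 counts.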
